A study of Mus musculus with 8 samples.

Results

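The laminin- and collagen-binding integrin chains were described in the transcriptome of PDGF-BB–treated mouse aortic smooth muscle cells (MASMCs) from WT and Hint1-/- mice. Integrins are receptors for the extracellular matrix, each built of 1 α chain and 1 β chain. The 9 genes were taken by symbol from the integrin family. No measured value enters that rule, although the set was chosen with earlier results of these data known. They were the α chains of the collagen receptors (Itga1, Itga2, Itga10, and Itga11), the α chains of the laminin receptors (Itga3, Itga6, and Itga7), the shared β chain Itgb1, and Itgb4, the alternative β chain of α6. All 9 of them were found among the 18533 gene symbols of the data, and all 9 passed the filter on low counts that left 13535 genes for testing.

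The α chain decides which matrix protein an integrin binds. The chains α1, α2, α10, and α11 carry an inserted I domain that grips triple-helical collagen, and each pairs with β1 only. The chains α3, α6, and α7 lack that domain and bind laminins, the cross-shaped trimers of the basement membrane that surrounds each smooth muscle cell of the aortic wall. All of them pair with β1, and α6 also pairs with β4, whose long cytoplasmic tail joins keratin filaments in the hemidesmosomes of epithelia. In muscle, α7β1 is the main laminin receptor of mature fibers, and laminin and its receptors are linked to the contractile state of smooth muscle cells in culture. α6β1, α6β4, and α7β1 are also carried by Schwann cells, the glia of peripheral nerve.

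The samples were 4 of WT and 4 of Hint1-/- MASMCs. Hint1 encodes a small histidine triad nucleotide-binding protein. The Hint1-/- line is a different one from the study's floxed, Cre-driven knockout, and the part of the gene that it lacks is not given in the sources used here. MASMCs are primary cells, freed with collagenase from pieces of the aorta of male mice aged 4 to 6 weeks after the adventitia and the endothelium had been taken off. All 8 samples received PDGF-BB, a growth factor that drives smooth muscle cells from the contractile toward the synthetic state, at 20 ng/mL for 24 hours, so no untreated cells were compared. No source states whether the 4 samples of a genotype came from separate mice or cultures. The p-values therefore measure only the spread between these samples, which may be technical.

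The depth per sample lay between 20778077 and 20888041 estimated counts. Hint1 had 2272, 2336, 2364, and 2301 counts in the WT samples and 713, 748, 778, and 715 in the Hint1-/- samples, so that all 8 libraries fell on the side of their label, with 32.1% of the WT level left in Hint1-/- samples. Of 10 smooth muscle markers, 9 passed the filter. Acta2 (smooth muscle α-actin) had 15956 to 17855 counts in WT and 11640 to 12331 in Hint1-/- samples, whereas Myh11, the myosin heavy chain of mature smooth muscle, had 406 to 456 and 136 to 152, and Myocd, the cofactor that drives contractile genes, had 7 to 14 counts in any sample and was not tested. Markers of other cell types were also measured, with summed levels of 2051 to 2855 CPM (counts scaled to a common library size, with TMM factors) for 10 macrophage markers and 57.7 to 85.4 CPM for 10 endothelial markers over the 8 samples.

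Between the genotypes, 5 of the 9 integrin chains passed an adjusted p of 0.05 (edgeR's quasi-likelihood test, Benjamini-Hochberg adjustment over all genes tested). Itga3, Itga6, Itga7, and Itga11 fell in Hint1-/- MASMCs, and Itga2 rose. Across all tested genes, 21.5% passed this limit, 10.2% with a lower and 11.2% with a higher level in Hint1-/- samples. Itga6 and Itga7 also passed the fold change limit of 1.5, which together with the adjusted p was met by 2.83% of tested genes, 1.49% lower and 1.34% higher. The other 4 chains (Itga1, Itga10, Itgb1, and Itgb4) did not pass. The genotypes did not overlap for 6 of the 9 chains, which was so for 23.0% of all tested genes. The median log2 fold change, Hint1-/- over WT, was −0.33 over the 9 chains and 0.00 over all tested genes.

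**Figure D1:**
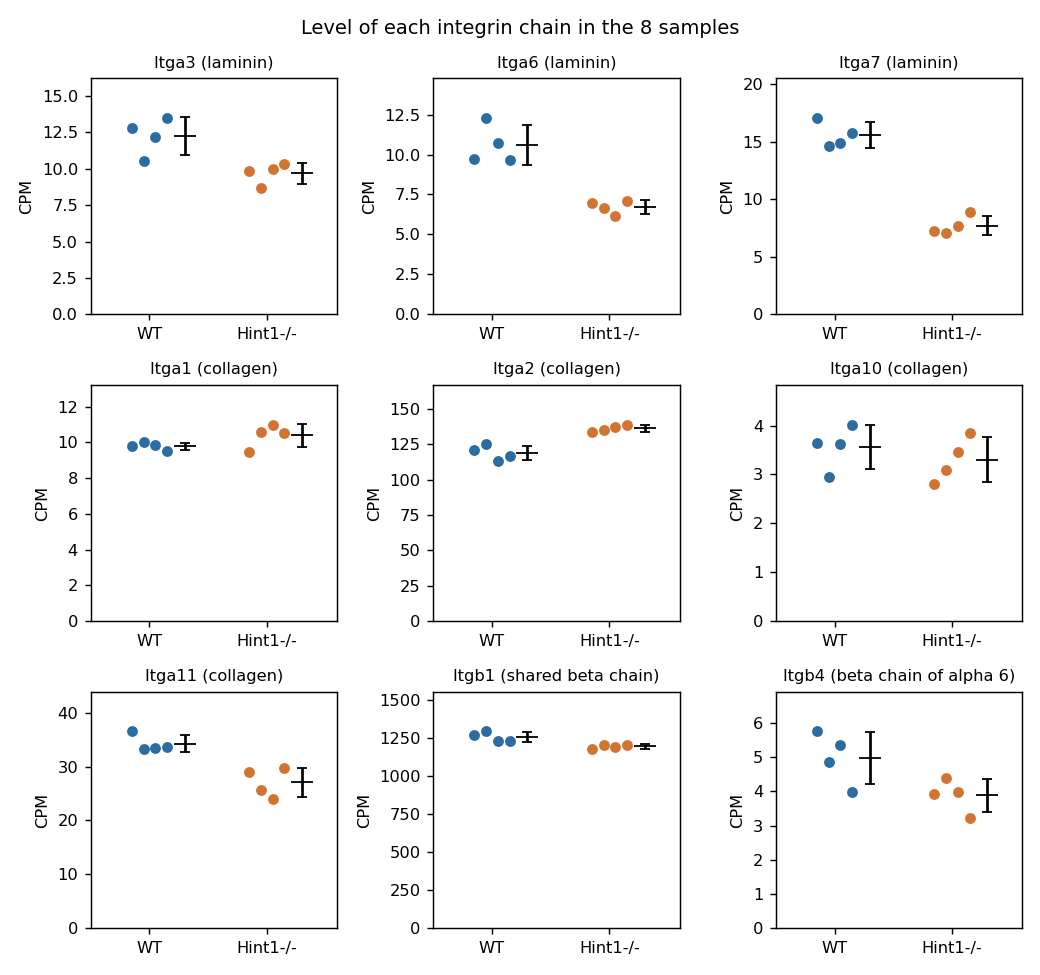
Level of each of the 9 chains, in CPM on a linear axis from 0, in the 4 WT (blue) and 4 Hint1-/- (orange) samples, with the mean and SD as a black bar beside the points. The genotypes stand apart for Itga2, Itga3, Itga6, Itga7, Itga11, and Itgb1 and overlap for Itga1, Itga10, and Itgb4.

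Among the laminin-binding α chains, all 3 fell. Itga7 (chr10:128933818-128958282 of mm10, plus strand), the muscle laminin receptor chain, had 17.1, 14.6, 14.9, and 15.8 CPM in the WT samples and 7.23, 7.06, 7.69, and 8.86 CPM in the Hint1-/- samples. The highest Hint1-/- sample lay well below the lowest WT sample. The mean was 15.6 ± 1.14 CPM for WT and 7.71 ± 0.813 CPM in Hint1-/- MASMCs (SD, n = 4 each). The fitted level in Hint1-/- samples was 49.5% of WT (95% CI 44.0% to 55.7%), a log2 fold change of −1.01 (SE 0.0803, edgeR adjusted p = 3.25e-08). This was the largest change of the 9 chains, and its interval alone lay wholly past the fold change limit.

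Itga6 (chr2:71745616-71858416, plus strand), which joins β1 or β4 to form a laminin receptor, had 9.74, 12.3, 10.7, and 9.63 CPM in the WT samples. In the Hint1-/- samples it had 6.99, 6.67, 6.15, and 7.08 CPM. The genotypes did not overlap, and WT replicate 2 stood above the other 3 WT samples. The means were 10.6 ± 1.23 and 6.72 ± 0.419 CPM (SD, n = 4 each), with a log2 fold change of −0.65 (SE 0.0904, 95% CI −0.84 to −0.46, edgeR adjusted p = 3.1e-05). The limit on the fold change was passed only with WT replicate 2 in the fit, since the log2 fold change without it was −0.57 (adjusted p = 0.000102). Itga6 and Itga7 were both picked by the study from these same samples, so their tests are not independent of that choice. The study's q-PCR of MASMCs given PDGF-BB reported less Itga6 in Hint1-/- cells and no effect of the genotype on Itga7.

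Itga3 (chr11:95044474-95076801, minus strand), the chain of the α3β1 receptor for laminins of epithelial and vessel wall basement membranes, had the smallest fold change of the 3. It had 12.8, 10.5, 12.2, and 13.5 CPM in the WT samples and 9.84, 8.65, 10, and 10.3 CPM in the Hint1-/- samples. The genotypes stood apart, although the highest Hint1-/- and the lowest WT value were close. The log2 fold change was −0.33 (SE 0.0829, 95% CI −0.51 to −0.16, edgeR adjusted p = 0.007), so that its interval lay within the fold change limit. Itga3 lies on the same chromosome as Hint1, 40.2 Mb away.

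Among the collagen-binding α chains, 1 rose, 1 fell, and 2 did not pass the test. Itga2 (chr13:114833081-114932100, minus strand), whose α2β1 receptor binds fibrillar collagens, had 121, 125, 113, and 117 CPM in the WT samples. In the Hint1-/- samples it had 134, 135, 137, and 139 CPM, all above WT and within a narrow range. This was a log2 fold change of 0.19 (SE 0.0352, 95% CI 0.12 to 0.27, edgeR adjusted p = 0.000517), or 114% of WT. Itga2 was the only one of the 9 chains to rise past the adjusted p.

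Itga11 (chr9:62677826-62783982, plus strand), the collagen I receptor chain of fibroblasts and other mesenchymal cells, fell. It had 36.6, 33.3, 33.5, and 33.7 CPM in the WT samples and 29.1, 25.7, 24.0, and 29.7 CPM in the Hint1-/- samples. The groups did not overlap, with WT replicate 1 above 3 closely spaced WT samples. The fitted change was −0.34 on the log2 scale (SE 0.061, 95% CI −0.47 to −0.21, edgeR adjusted p = 0.000492), or 79.1% of WT.

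Itga1 (chr13:114953096-115101964, minus strand), whose α1β1 receptor prefers the collagen IV of basement membranes, had 9.78, 10, 9.85, and 9.53 CPM in the WT and 9.45, 10.6, 11.0, and 10.5 CPM in the Hint1-/- samples. The Hint1-/- samples ranged from below the lowest to above the highest WT sample. The log2 fold change of 0.09 had a 95% CI of −0.06 to 0.23 (edgeR adjusted p = 0.432). Itga10 (chr3:96645584-96664519, plus strand), a collagen II receptor chain best known from cartilage, had 3.65, 2.95, 3.63, and 4.02 CPM in the WT and 2.80, 3.09, 3.46, and 3.85 CPM in the Hint1-/- samples. A log2 fold change of −0.11 was fitted, with a 95% CI of −0.40 to 0.18 (edgeR adjusted p = 0.628), so a change of either sign up to these bounds could not be told from none.

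Itga1 and Itga2 are neighbors on chromosome 13, 21 kb apart and on the same strand. Itga2 rose and Itga1 did not pass, but the difference between their changes was not tested. The gene Pelo lies within an intron of Itga1 on the same strand and had 454 to 579 counts per sample beside the 196 to 229 of Itga1, with a log2 fold change of 0.15 (edgeR adjusted p = 0.0882). Reads at a shared locus may be divided between such genes by the counting. Estimated counts with fractions, as reads shared with other transcripts give, occurred for Itga2, Itga7, and Itga11. Gene models not analysed here overlap exons of Itga1, Itga10, and Itgb4, whose reads could be counted to these chains. The 3′ end of Itga7 runs a few bases into Mettl7b on the opposite strand, which had 1 to 5 counts in any sample.

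Sequences upstream of the transcription start were available for 6 of the 9 genes, Itga1, Itga2, Itga3, Itga10, Itga11, and Itgb1, in RefSeq promoter windows of build GRCm38.p6 (mm10). Their 250 bases before the start were searched for the palindrome GCCNNNGGC, bound by AP-2 factors, and for the E-box CACGTG, bound by USF and MITF factors. Both read the same on either strand. The AP-2 letters were present once each in the windows of Itga2 and Itga11, starting 135 and 131 bases before the RefSeq start, and 13.7% of all 32851 windows held them. The E-box was in none of the 6 genes' windows and in 6.02% of all windows. The windows of Itga2 and Itga11 are shown since these collagen receptor chains moved in opposite directions and held the match, which stands in capitals, up to the first base of the annotated gene. For Itga11 the annotated gene begins within the window, so the printed sequence stops short of the RefSeq start.
Itga2 (chr13:114932101-114932350, minus strand): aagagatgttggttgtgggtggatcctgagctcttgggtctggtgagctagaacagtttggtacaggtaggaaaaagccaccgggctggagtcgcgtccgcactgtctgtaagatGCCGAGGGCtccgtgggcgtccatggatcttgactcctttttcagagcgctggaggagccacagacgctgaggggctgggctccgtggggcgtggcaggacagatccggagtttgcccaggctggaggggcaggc
Itga11 (chr9:62677605-62677825, plus strand): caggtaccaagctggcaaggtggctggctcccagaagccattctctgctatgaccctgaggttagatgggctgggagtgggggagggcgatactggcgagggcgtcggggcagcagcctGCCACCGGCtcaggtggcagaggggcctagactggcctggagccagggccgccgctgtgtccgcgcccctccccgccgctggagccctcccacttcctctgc
The G+C content of the whole windows of 250 bases was 60.8% for Itga2 and 68.4% for Itga11, against a median of 52.4% over all windows. The match is a description of these letters, held by a gene that rose and a gene that fell. The Itga6 promoter, at which the study reported binding of the AP-2 factor TFAP2A, had no window and was not searched.

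Neither β chain passed the test with edgeR, against 2 of 2 lower at an unadjusted p under 0.05. Itgb1 (chr8:128685654-128733200, plus strand), the common partner of all 7 α chains, had 1271, 1294, 1230, and 1233 CPM in the WT and 1177, 1207, 1189, and 1206 CPM in the Hint1-/- samples. The genotypes did not overlap, but by a small margin. The log2 fold change was −0.07 (SE 0.0309, 95% CI −0.14 to −0.01), and it did not pass with edgeR (adjusted p = 0.105) while it did with DESeq2 (adjusted p = 0.0362). Its fitted level in Hint1-/- samples was 95.1% of WT (95% CI 90.9% to 99.4%).

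Itgb4 (chr11:115974709-116008412, plus strand), which lies 61.1 Mb from Hint1, had 5.76, 4.86, 5.35, and 3.98 CPM in the WT and 3.91, 4.40, 3.99, and 3.23 CPM in the Hint1-/- samples. WT replicate 4 lay within the Hint1-/- range, and the groups overlapped. Only 67 to 120 counts per sample stood behind these levels. The change was −0.36 on the log2 scale (SE 0.13, 95% CI −0.64 to −0.09, edgeR adjusted p = 0.0561), just short of the limit. Without WT replicate 4 it was −0.46 (adjusted p = 0.0148), and without Hint1-/- replicate 2 it was −0.43 (adjusted p = 0.0469). Leaving out any other single sample did not take it past the limit, as with −0.28 without Hint1-/- replicate 4 (adjusted p = 0.177). It did not pass with DESeq2 (adjusted p = 0.121) or limma-voom (adjusted p = 0.0675) either. Keratins 5 and 14, the filaments to which β4 links in epithelia, had 0 to 2 counts in any sample and were not tested.

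**Figure D2:**
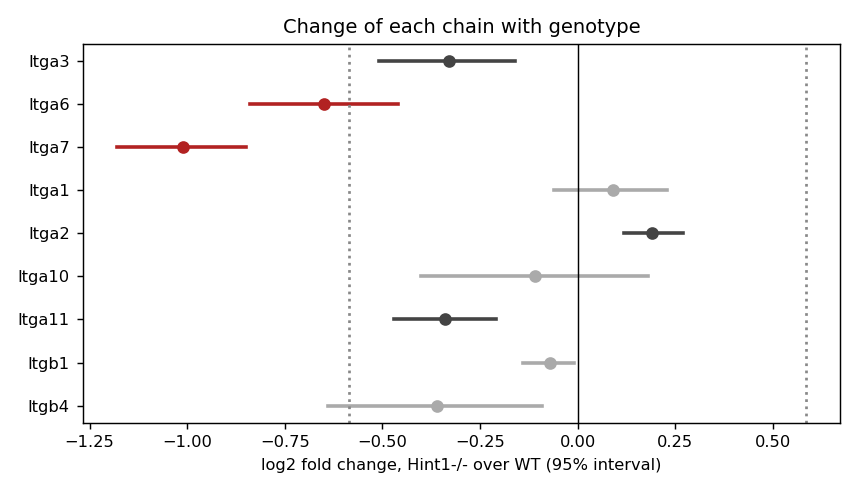
Log2 fold change of each chain, Hint1-/- over WT (point), with its 95% interval (line). Red marks the chains past both limits (Itga6 and Itga7), dark gray those past the adjusted p only (Itga2, Itga3, and Itga11), and light gray those past neither, and the dotted lines stand at a fold change of 1.5 in either direction. The interval of Itga7 alone lies wholly beyond a dotted line.

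Permuting the genotype labels of log2 CPM (exact test, two-sided) gave p = 0.0286 for each of the 6 chains without overlap, the smallest value that the 70 assignments of 4 samples against 4 allow. Any gene without overlap must give this value, so it only restates that the groups stood apart. The exact test gave p = 0.143 for Itga1, p = 0.457 for Itga10, and p = 0.0857 for Itgb4, unadjusted. In bulk RNA, fewer cells that carry a chain and less of its RNA per cell cannot be told apart.

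Levels of different chains were compared per length, as CPM per kilobase of exon (union of all annotated exons, GENCODE M21). On this scale Itgb1 stood at 308 ± 7.6 in WT (SD, n = 4), rank 130 of the 13125 tested genes with a known length. Itga2 followed at 16.7 ± 0.715, and Itga11 at 6.68 ± 0.304. The laminin-binding chains came next, with Itga3 at 2.14 ± 0.223 and Itga7 at 1.93 ± 0.141, which overlapped over the WT samples, and Itga6 at 1.17 ± 0.137. Itgb4 (0.711 ± 0.109) and Itga10 (0.687 ± 0.0859) overlapped each other, and Itga1 was lowest at 0.527 ± 0.0106.

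In Hint1-/- samples the order was the same down to Itga6, and more neighbors overlapped below it. Itga3, at 1.70 ± 0.128, no longer overlapped Itga7, at 0.953 ± 0.100. Itga6 fell to 0.745 ± 0.0465 and overlapped Itga10 (0.637 ± 0.0882), which in WT had lain below it without overlap. Itga1 (0.559 ± 0.0357) and Itgb4 (0.553 ± 0.0692) ended the order. The middle of the order rests on the length used. With the longest transcript in place of the union of exons, Itga7 (3.88 in WT) stood above Itga3 (2.52) and Itga6 (2.45), and Itga1 (0.893) above Itgb4 (0.803), while Itgb1, Itga2, and Itga11 kept the first 3 places. In Hint1-/- samples on that scale Itga3 (2.00) and Itga7 (1.92) overlapped, and Itga6 (1.56) did not overlap the next chain, Itga1 (0.948), so both of these statements on neighbors turn with the length used.

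**Figure D3:**
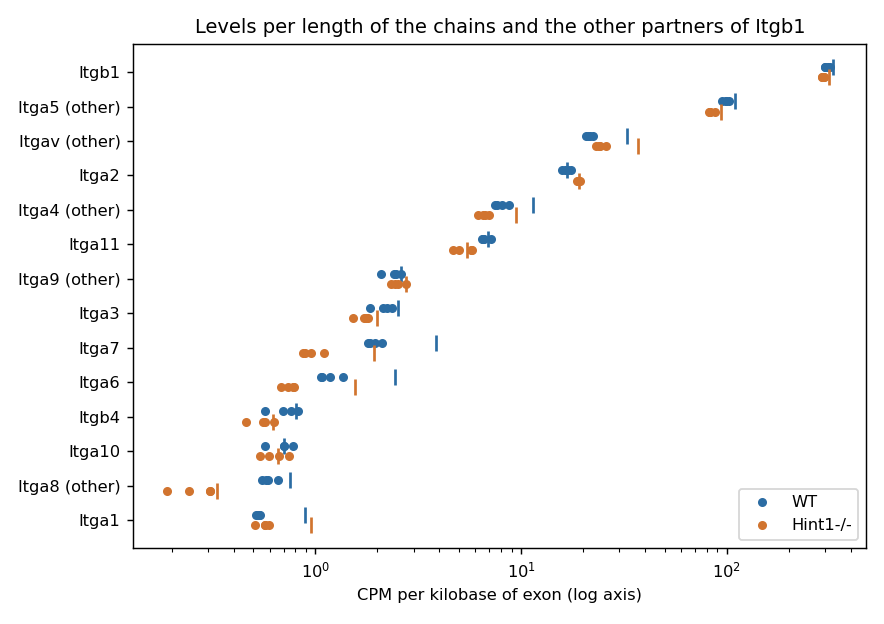
Level per length, in CPM per kilobase of exon on a log axis, of the 9 chains and of the other α partners of Itgb1 (marked other) in each WT (blue) and Hint1-/- (orange) sample. Points use the union of exons, and vertical ticks show the group mean with the longest transcript, which lifts Itga6, Itga7, and Itga1. Itgb1 lies far to the right, at 308 in WT, and the laminin-binding chains reach from 0.682 to 2.36.

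The α chains that share Itgb1 were then set against each other as shares of their summed level per length, given without a test. The laminin-binding chains summed to 5.43, 5.00, 5.16, and 5.37 in the WT samples and 3.39, 3.13, 3.39, and 3.68 in the Hint1-/- samples, and the genotypes stood apart. Within that sum, the share of Itga7 was 36.7% ± 1.53 in WT and 28% ± 1.38 in Hint1-/- samples (SD, n = 4 each). The share of Itga3 was 40.8% ± 2.99 in WT and 50% ± 1.58 in Hint1-/- samples, with no overlap for either share. The share of Itga6 overlapped between genotypes, at 22.5% ± 3.49 and 22.0% ± 1.58. The ratio of Itga7 to Itga6 was 1.32 to 1.96 in WT and 1.15 to 1.4 in Hint1-/- samples and overlapped. With the longest transcript the share of Itga7 was 43.8% in WT and 35.0% in Hint1-/- samples, and the same 2 shares stood apart.

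The collagen-binding chains summed to 23.6 to 25.3 in WT and 25.1 to 26.5 in Hint1-/- samples, and the genotypes overlapped. Itga2 held 67.9% ± 1.31 of that sum in WT and 74.7% ± 1.45 in Hint1-/- samples. Itga11 held 27.2% ± 1.03 and 20.7% ± 1.67. Neither share overlapped between genotypes, and the ratio of Itga2 to Itga11 was 2.37 to 2.71 in WT and 3.31 to 4.09 in Hint1-/- samples. Itga1 and Itga10 each held between 1.99% and 3.20% in any sample.

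**Figure D4:**
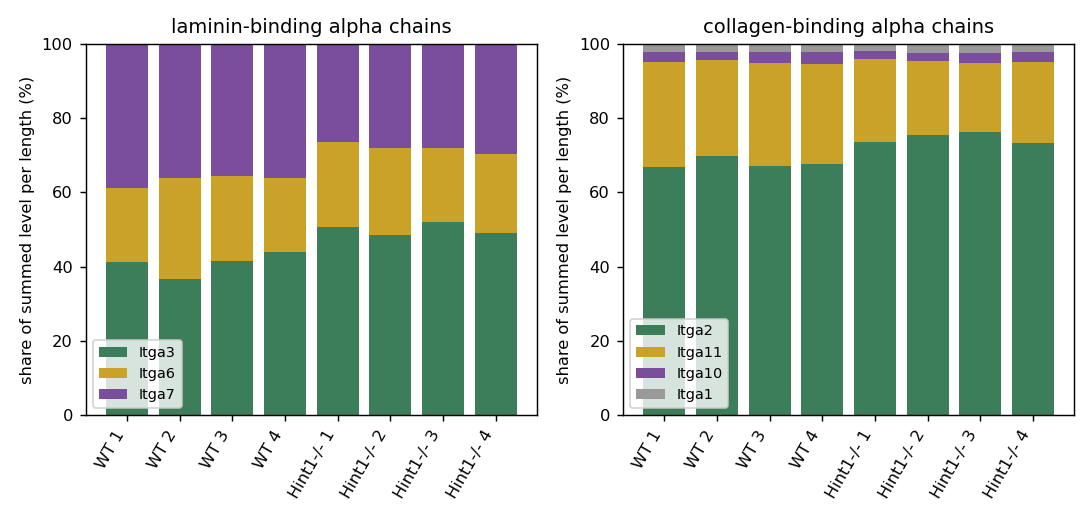
Share of each α chain in the summed level per length of its ligand group, in percent, in each of the 8 samples, for the laminin-binding chains (left) and the collagen-binding chains (right). The share of Itga7 (purple, left) is smaller, and that of Itga2 (green, right) larger, in all 4 Hint1-/- samples.

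Against all 12 α chains that can pair with β1, the laminin-binding chains held 3.25% ± 0.0825 in WT and 2.32% ± 0.137 in Hint1-/- samples, and the collagen-binding chains 15.3% ± 0.526 and 17.5% ± 0.329. The genotypes stood apart for both. Itga5, the fibronectin receptor chain, held most of the rest, at 61.3% ± 1.16 and 57.3% ± 1.15, followed by Itgav, the vitronectin receptor chain, at 13.3% and 16.6%. Itgav also pairs with other β chains and was counted in full. Itgb1 exceeded the summed α chains 1.85- to 2.00-fold in WT and 1.93- to 2.04-fold in Hint1-/- samples, which overlapped. It exceeded Itgb4 380- to 533-fold in WT and 472- to 642-fold in Hint1-/- samples.

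Of the 17 other integrin chains, 14 were tested, of which 2 rose and 6 fell past the adjusted p. Both limits were passed by Itgb8, a β chain that pairs with αv and activates TGF-β, with a log2 fold change of 0.76 (edgeR adjusted p = 0.000539), and by Itga8, the nephronectin receptor chain of smooth muscle and mesangial cells, with −1.18 (adjusted p = 1.24e-05). Itga8 is 1 of 5 other α partners of β1, of which 3 fell and 1 rose past the adjusted p. Its mean level was 4.37 ± 0.336 CPM in the WT and 1.93 ± 0.423 CPM in the Hint1-/- group (SD, n = 4 each). Itgb8 and Itga8 were also picked by the study from these same samples, so their tests are not independent of that choice. The study's q-PCR of MASMCs given PDGF-BB reported no effect of the genotype on either.

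Of the 11 laminin chains, the ligands of α3, α6, and α7, 4 rose past the adjusted p and Lamb3, a chain of the epithelial laminin-332, passed both limits with a log2 fold change of 0.91 (adjusted p = 0.00408) at 17 to 57 counts per sample. Lama2 and Lama4, the α chains of muscle and vessel wall laminins, had log2 fold changes of 0.18 and 0.32 and, like Lamc1 (0.11), were named after their values were seen. With edgeR 0 laminin chains fell past the adjusted p, against 2 at an unadjusted p under 0.05, 0 with DESeq2, and 1 with limma-voom. Of 17 collagen chains, 16 were tested, of which 6 rose and 7 fell past the adjusted p. Both limits were passed by Col2a1, the cartilage collagen, with 3.41 (adjusted p = 6.77e-16), Col24a1 with 0.70 (adjusted p = 0.00062), Col27a1 with −1.09 (adjusted p = 1.44e-06), and Col11a1 with 0.67 (adjusted p = 2.62e-10). The main chains of collagen I and IV fell by less, as Col1a1 did with a log2 fold change of −0.17 and Col4a1 with −0.18. In contrast, Col3a1 (0.25) and the other collagen IV chains Col4a5 (0.20) and Col4a6 (0.37) rose past the adjusted p. Col11a1, Col1a1, Col4a1, Col3a1, Col4a5, and Col4a6 were named after their values were seen.

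With edgeR, 0 genes passed both limits among the other receptors and the intracellular partners, and the count was also 0 with DESeq2, with limma-voom, and at an unadjusted p under 0.05 beside the fold change limit. Of 12 tested non-integrin laminin and collagen receptors, 3 rose and 3 fell past the adjusted p, with log2 fold changes between −0.38 and 0.21. Dystroglycan (Dag1), the other main laminin receptor of muscle, rose by 0.15 (edgeR adjusted p = 0.00541). Of 11 tetraspanins and other lateral partners, 1 rose and 4 fell past it, and Cd151, the tetraspanin that binds laminin-binding integrins most tightly, had a log2 fold change of 0.05 (adjusted p = 0.281). Of 34 tested activators, inhibitors, and adaptors, 4 rose and 7 fell past it. Among them Ptk2, which encodes focal adhesion kinase, had −0.11 (adjusted p = 0.0497), and Tln1 (talin), which switches integrins on, had −0.05 (adjusted p = 0.257). Of 3 tested hemidesmosome proteins, Dst rose by 0.28 (adjusted p = 0.00128) and the other 2 did not pass. The median log2 fold change was −0.04 over the other integrins, 0.08 over the laminins, 0.01 over the collagens and also over the other receptors, −0.05 over the lateral partners, and −0.03 over the adaptors, against 0.00 over all tested genes. Dag1, Cd151, Ptk2, Tln1, and Dst were named for their roles, after their values were seen.

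**Figure D5:**
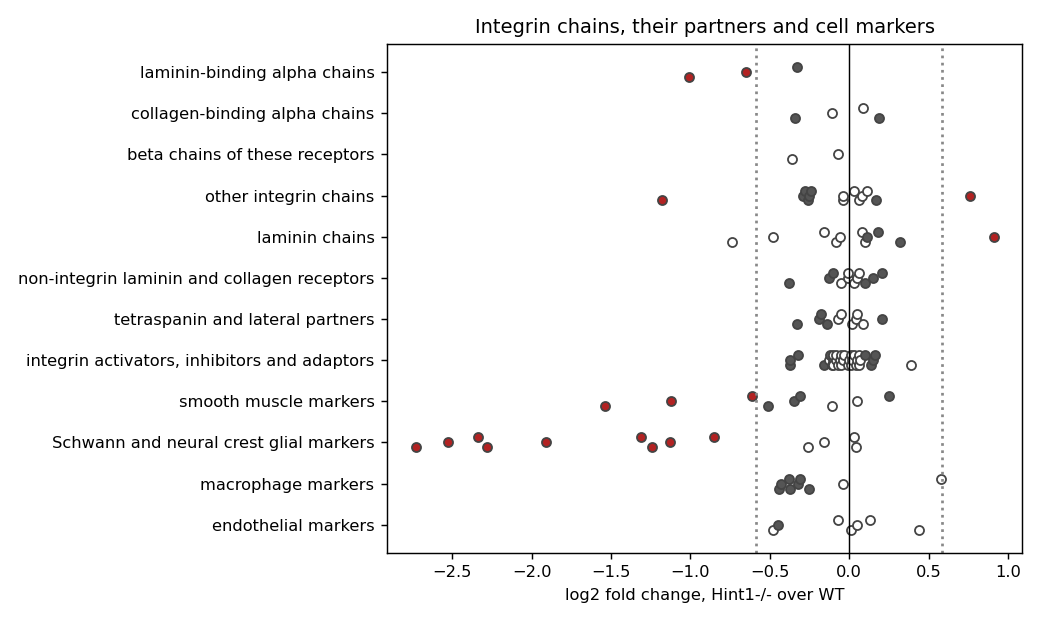
Log2 fold change, Hint1-/- over WT, of each tested gene of 12 lists, 1 point per gene. Red points passed both limits, gray points the adjusted p only, white points neither, and dotted lines stand at a fold change of 1.5. The laminin-binding chains lie at −1.01, −0.65, and −0.33, to the left of most adaptors, and the Schwann and glial markers reach −2.73.

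Markers of other cells moved with genotype beside these chains. Of 14 Schwann and neural crest glial markers, 13 were tested and 9 passed both limits, all 9 lower in Hint1-/- samples, with a median log2 fold change of −1.24. They included the neurotrophin receptor Ngfr (−2.73), the transcription factors Sox10 (−2.53) and Foxd3 (−2.28), and the cadherin Cdh19 (−1.91). The summed level of the list was 92.5 to 101 CPM in the WT and 45.4 to 49.5 CPM in the Hint1-/- samples, no marker was at 0 in all samples, and only Gfap was too low to test. Of 9 tested smooth muscle markers, Myh11 (−1.54), Cnn1 (−1.12), and Des (−0.61) passed both limits, and 1 rose and 6 fell past the adjusted p. The median was −0.35, and the summed level was 2516 to 2665 CPM in the WT and 2330 to 2421 CPM in the Hint1-/- samples. The fall of this sum lay mostly in Acta2 (log2 fold change −0.51), whose mean CPM was 826 for WT against 578 for Hint1-/-. By q-PCR of MASMCs given PDGF-BB, the study reported more Acta2, Tagln, and Cnn1 in Hint1-/- cells. Here Acta2 and Cnn1 were lower, and Tagln (−0.11) did not pass (edgeR adjusted p = 0.0696). Acta2 and Tagln were named after their values were seen. The part of either lineage in the levels of Itga6, Itga7, and Itgb4 was not tested.

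Of 9 tested macrophage markers, 7 fell past the adjusted p, with a summed level of 2488 to 2855 CPM in the WT and 2051 to 2195 CPM in the Hint1-/- samples. Of 10 fibroblast and adventitial markers, 3 rose and 3 fell past it. Lum (0.88), Dcn (0.83), and Dpt (−0.79) passed both limits, and the summed level was 2580 to 2636 CPM in the WT and 3379 to 3581 CPM in the Hint1-/- samples. The rise of this fibroblast sum lay mostly in Dcn, whose mean CPM was 1112 for WT against 1975 for Hint1-/-. The median log2 fold change over the fibroblast list was −0.04. Of 7 tested endothelial markers, only Flt1 fell past the adjusted p. It made up most of the list's sum (77.3 to 85.4 CPM in WT and 57.7 to 62.6 CPM in Hint1-/- samples), with means of 71.9 and 52.7 CPM, and was named after its values were seen. The sum of 10 cardiac markers was 2.01 to 2.69 CPM in the WT and 7.22 to 11.8 CPM in the Hint1-/- samples, and 4 of 5 tested rose past both limits, of which Myl7 was at 0 in all 4 WT samples. Epithelial and mesothelial markers were mostly too low to test, and Krt19 (0.84), which stands on both lists, rose. Of 10 skeletal muscle markers, 1 was tested and it did not pass. The part of these cells in the levels of the integrin chains was not tested.

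The genes most like Itga6 and Itga7 over the 8 samples were sought among 11840 genes with a mean count of at least 50, by Pearson's r of log2 CPM. They were Parp9 (r = 0.988), Nars (0.984), and Btc (0.982) for Itga6, and Inhbb (0.994), Tspan5 (0.991), and Pappa (0.991) for Itga7. These 8 points share the genotype difference, so the values describe a pattern over few samples.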

How the data were processed

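RNA-Seq was analysed for 4 WT and 4 Hint1-/- samples of MASMCs. The authors deposited 1 table of estimated counts per sample, by gene symbol and without normalization. The study's methods name a BGISEQ-500, 50-base reads, Hisat2, and mm10, whereas the submitters' processing notes name Bowtie2, RSEM 1.3.1, DESeq2 1.4.5, and mm10, and the annotation is not given in the sources used here. Whole numbers made up 67.3% to 67.8% of a sample's values.

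Estimated counts were rounded to whole numbers. Genes were filtered with filterByExpr, scaled by TMM (factors 0.993 to 1.01), and compared with glmQLFit and glmQLFTest of edgeR 4.0.16 in R 4.3.3 over all 8 samples, with genotype as the only term, two-sided, and with Benjamini-Hochberg adjustment over all 13535 genes tested. A gene passed both limits with an adjusted p below 0.05 together with a fold change above 1.5, as the study's methods set them. The SE is the size of the log2 fold change divided by the square root of F. Log2 CPM used a prior count of 2. No molecular identifiers are described, so the precision that counts give covers counting error only. Libraries of 1 genotype differed by more than counting noise, with a chi-square statistic per gene of 2.19 to 6.02 over 12 pairs, and by 13.2 to 19.3 over 16 pairs between genotypes.

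Levels per length divided CPM by exon length from GENCODE M21, which gave no length for 824 of 18533 symbols. Shares and ratios are descriptions. The members, the gene lists, and the marker lists were chosen with earlier results of these data known. Named genes were all 9 chains and Hint1, up to 3 genes per partner list and up to 5 per marker list past both limits in order of size (marker lists with at least 3 such markers), and the 3 genes most like each chain past both limits. Other genes are given as named after their values were seen. The result for 1 gene under this rule is not reported here.

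Alternatives were DESeq2 1.42.0, limma-voom (limma 3.58.1), RLE and upper-quartile scaling, no filter, a minimum of 10 counts in all samples, a block for the replicate number, leaving out single samples, glmTreat, no limit on the fold change, the longest transcript as length, and library size without TMM factors.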

Additional observations from a re-analysis of the deposited data

Results flagged for a closer look

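In 1 of the 54 groups of 4 samples examined, a sample stood apart from the others. The log2 CPM of Itga11 in WT replicate 1 was separated from the nearest WT sample by 0.854 of the whole range of the group, above Dixon's 95% critical value for a group of 4. It had 36.6 CPM, against 33.3 to 33.7 CPM in the other 3 WT samples. Chance gives such a gap in about 1 in 20 groups, or 2.7 of 54. Its fold change stayed past the adjusted p with each sample left out in turn.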

How the results depend on the processing

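The fold change of each of the 9 chains kept its direction under every alternative that was run. The number of chains past both limits was 2, and it was 1 to 2 with each sample left out in turn, 1 with glmTreat (Itga7), and 5 with no limit on the fold change. The count over all genes was 383, and it was 108 with glmTreat, 2907 with no limit on the fold change, and 350 to 390 with each sample left out. The 7 genes of the partner lists past both limits numbered 7 to 9 with each sample left out. The log2 fold change of Itga6 lay between −0.70 and −0.57 with each sample left out, the latter without WT replicate 2, which took it under the fold change limit at an adjusted p of 0.000102. That of Itgb1 was −0.07 with DESeq2 and passed there (adjusted p = 0.0362). That of Itgb4 was −0.36 with at least 10 counts in every sample (adjusted p = 0.0468), and −0.46 to −0.28 with each sample left out (adjusted p from 0.0148 to 0.177).

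With the replicate number as a replicate block, Itgb4 had a log2 fold change of −0.36 and passed (edgeR adjusted p = 0.0333), and no other chain changed its call. The labels do not say that a number pairs samples, and deviations of same-numbered samples correlated by −0.045, 0.0814, 0.00875, and 0.023 for replicates 1 to 4, so the numbers were not taken to pair them.

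With the longest transcript as length, 45 of 68 levels, shares, and ratios moved by more than the spread between replicates, and 23 did not. Of the comparisons of genotypes whose groups overlapped, the share of Itga6 among the laminin-binding chains turned from 22.5% in WT and 22% in Hint1-/- samples to 27.8% and 28.5%, and the ratio of Itgb1 to the 7 α chains from 10.3 and 10.1 to 9.67 and 9.89. None of the 68 moved so far without TMM factors. Depth limits Itga10 and Itgb4 most, at 58 to 120 counts per sample.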
